A study of Mus musculus with 14 samples.

Results

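The miR-196 family was followed along the mouse epididymis through the mature products of miR-196a and miR-196b. Every name beginning with miR-196a or miR-196b was taken from a count table of whole epididymal tissue and a count table of isolated epididymal epithelial cells. This gave 5 products in each table, the same 5 names in both, out of 900 mature miRNAs listed for whole tissue and 677 listed for epithelial cells (578 names were shared). They were miR-196a-5p, miR-196b-5p, miR-196a-2-3p, miR-196b-3p and miR-196a-1-3p. All animals were Swiss male mice, 8 weeks of age, and untreated as far as the labels state. The epididymis, the duct in which sperm mature after leaving the testis, was divided into caput, corpus and cauda, from its beginning to its end. Small RNA sequencing covered 8 whole tissue libraries (3 of the caput, 2 of the corpus, 3 of the cauda) and 6 libraries of epithelial cells (2 for each region). RNA was pooled from several mice for each library, so that no library stands for a single animal. For the epithelial cells, caudal sperm were flushed from the lumen, the tissue was digested, and fibroblasts and muscle cells were left behind on a culture dish to which they stick.

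MicroRNAs are short RNAs that guide Argonaute proteins to messenger RNAs, and the bases near their 5′ end, the seed, contribute most to target choice. Each precursor hairpin yields a 5p and a 3p product, 1 of which is usually kept while the other is degraded. The miR-196 genes lie within the Hox clusters, whose homeobox genes pattern the body axis from head to tail, and miR-196 is best known for repressing Hoxb8. Hox genes of the posterior type also pattern the male reproductive tract.

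The family comes from 3 genes, placed here on the GRCm38.p6 assembly. Mir196b lies on chr6:52230081-52230165 on the minus strand, where its hairpin overlaps exons of 2 of 3 non-coding Hoxa9 transcripts and lies 1031 bp from Hoxa10. Mir196a-1 lies on chr11:96265164-96265265 on the plus strand, outside any coding gene and 6191 bp from Hoxb9. Mir196a-2 lies on chr15:102973350-102973434 on the plus strand, in an intron of a non-coding Hoxc5 transcript, with Hoxc10 1456 bp away on one side and Hoxc9 3004 bp away on the other. The 5p product of miR-196a is the same from both of its genes, so a count of miR-196a-5p does not tell them apart, whereas their 3p products differ. All 5 products were matched to RefSeq. Their mature sequences are printed from 5′ to 3′, with the seed (bases 2 to 8) in capitals, since the 5p pair carries most of the values below and the 3p products separate the genes.
miR-196a-5p: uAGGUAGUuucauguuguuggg
miR-196b-5p: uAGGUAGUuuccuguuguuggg
miR-196a-2-3p: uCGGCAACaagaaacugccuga
miR-196b-3p: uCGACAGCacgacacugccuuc
miR-196a-1-3p: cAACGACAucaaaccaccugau

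The 5p products are both 22 bases long and share 21 of them. They differ by A12C, with miR-196a-5p as the reference and positions counted from its 5′ end, a position outside the seed. No other mature mouse miRNA in the RefSeq table had this seed. The same letters, AGGUAGU, were held anywhere by 13 of 1679 mature names (0.774%), among them let-7a-5p, where they start at base 3 and so do not form the seed. The letters are in capitals in its sequence.
let-7a-5p: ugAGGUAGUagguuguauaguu

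The 3p products of Mir196a-2 and Mir196b shared 16 bases and had different seeds. Reads that differ by 1 base can be assigned to either 5p product where an aligner allows a mismatch, and the mismatches allowed are not given in the sources used here. Every epithelial value was deposited with 0.001 added, which was subtracted first. None of the family's values was then a fraction (0 of 70 over the 14 libraries), whereas 2.95 to 4.58% of all values per library were fractions.

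Library totals ran from 1243397 to 2135500 in whole tissue and from 89039 to 362866 in the epithelial preparation, so a count of 1 weighed more in the latter. Levels are in CPM, counts scaled to a common library total with TMM factors within each preparation. The sum over 7 miRNAs typical of epithelium was 21952 to 23779 CPM in the tissue caput, 17431 to 18260 in corpus libraries and 8227 to 9979 in cauda libraries. In the epithelial preparation it was higher, at 26223 to 28799 CPM, 38843 to 40646 and 33869 to 41367. Muscle miRNAs were abundant there too. The sum over 4 of them was 144766 to 195938 CPM in the caput, 210541 to 212662 in corpus libraries and 158383 to 337079 in cauda libraries of the epithelial preparation, against 53170 to 65899, 76293 to 80280 and 223244 to 249545 in tissue.

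In whole tissue, both 5p products were lowest in the caput and highest in the cauda. miR-196a-5p stood at 9.65, 11.7 and 13.7 CPM in the 3 caput libraries, at 224 and 247 CPM in corpus libraries, and at 274, 322 and 319.5 CPM in the cauda. miR-196b-5p stood at 21.9, 21.4 and 24.7 CPM in the caput, at 217 and 280.1 CPM in corpus libraries, and at 833, 879.7 and 1076 CPM in the cauda. For each of them every library of a region lay above every library of the region before it. With so few libraries such an order can arise by chance, and the share of all miRNAs that separate in this way was not counted. The caput values rest on few reads, between 15 and 45 counts per library for either product.

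**Figure D1:**
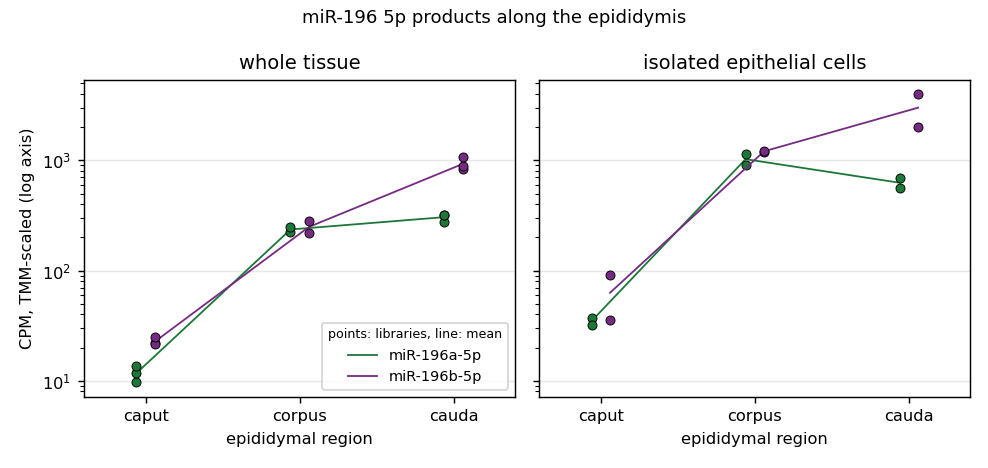
Levels of miR-196a-5p and miR-196b-5p (CPM, log axis) by region in whole tissue and in isolated epithelial cells, with 1 point per library and lines through the means. Both products are lowest in the caput, and from corpus to cauda miR-196b-5p has a higher mean in both preparations while miR-196a-5p goes from 1025 to 626 CPM in epithelial cells.

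The 2 products took different steps. miR-196a-5p went from 11.7 ± 2.04 CPM (SD, n = 3) in the caput to 236 ± 16.4 CPM (SD, n = 2) in the corpus, 20.1-fold higher, with a log2 fold change of 4.30 (SE 0.22, limma adjusted p = 4e-07). From corpus to cauda it reached 305 ± 26.8 CPM (SD, n = 3), 1.3-fold higher, a log2 change of 0.37 (SE 0.13, limma adjusted p = 0.031). That difference passed the false discovery rate (FDR) threshold of 0.05 but not the 2-fold threshold, so it was not called, and with the replicate number as a block its adjusted p in limma was 0.09. On the log2 scale most of the difference of miR-196a-5p along the tissue thus lay between caput and corpus.

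miR-196b-5p, the product of the Hoxa gene, rose at both steps. It went from 22.7 ± 1.79 CPM (SD, n = 3) to 249 ± 44.3 CPM (SD, n = 2), 11.0-fold higher, with a log2 fold change of 3.43 (SE 0.22, limma adjusted p = 1.6e-06). From there it went to 929.6 ± 129 CPM (SD, n = 3) in the cauda, 3.74-fold higher, with a log2 fold change of 1.90 (SE 0.15, limma adjusted p = 7.7e-06). Over the whole length, from caput to cauda, the level was 41.0-fold higher for miR-196b-5p and 26.1-fold higher for miR-196a-5p. The corresponding log2 fold changes were 5.33 (SE 0.20, limma adjusted p = 2.7e-08) and 4.66 (SE 0.21, limma adjusted p = 6e-08). Among the 900 names, miR-196b-5p moved from a caput rank of 227 by mean CPM to corpus and cauda ranks of 108 and 65, and miR-196a-5p from rank 271 to ranks 112 and 102.

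Of the 5p products, 2 of 2 were called higher from caput to corpus (FDR below 0.05 and at least 2-fold), where 29.9% of all 334 miRNAs tested were called in either direction and 14.1% were called higher. From corpus to cauda it was 1 of 2, or 1 of 3 with miR-196a-2-3p, beside 27.3% called and 14.4% called higher of 341 tested. From caput to cauda it was again 2 of 2, beside 53.2% called and 27.9% called higher of 355 tested, and the median log2 fold change of all miRNAs tested was -0.05. A product entered a test only with a mean count above 10 in either region. miR-196a-2-3p in the tests against the caput, and miR-196b-3p in every test, could enter only through the region where they were higher and are left out of these counts. miR-196a-1-3p reached that mean in no region. In bulk tissue, fewer cells that hold a miRNA cannot be told apart from less of it per cell.

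Sums of marker miRNAs also moved along the same axis. Beside the cauda values of the 5p products, the muscle sum given above was highest in the cauda and the epithelial sum lowest. The sum over 10 miRNAs typical of germ cells was 4219 to 5328 CPM in the tissue caput, 4798 to 5613 in corpus libraries and 9746 to 12733 in cauda libraries, with counts for all 10 in each region. The leukocyte sum (5 names) went from 966 to 1160.3 CPM in caput libraries to 1948 to 1993 CPM in cauda libraries, with 1160.3 to 1450 CPM between them. The fibroblast sum (3 names) was 1360.0 to 1631 CPM, 2505 to 2622 CPM and 2362 to 2758 CPM in caput, corpus and cauda, and the red blood cell sum (3 names) was 23.6 to 32.4 CPM, 64.3 to 80.7 CPM and 106 to 241 CPM. A sum follows its most abundant members, and the members of these lists were not compared singly. The part of these cells in the tissue values of miR-196 was not tested.

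In the isolated epithelial cells, the step from caput to corpus was again steep. miR-196a-5p stood at 37.3 and 32.2 CPM in the caput, at 917 and 1134 CPM in corpus libraries, and at 689 and 564 CPM in the cauda. miR-196b-5p stood at 90.2 and 35.4 CPM in the caput, at 1201 and 1215 CPM in corpus libraries, and at 3992 and 2025 CPM in the cauda. The caput libraries lay far below the others for both. The corpus and cauda libraries did not overlap either, but in opposite order: miR-196a-5p was lower in the cauda and miR-196b-5p was higher. The share of all miRNAs that separate in this way was not counted here either. The caput values rest on 10 to 29 counts per library.

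From caput to corpus, miR-196a-5p went from 34.8 ± 3.62 to 1025 ± 153 CPM (SD, n = 2 each), 29.5-fold higher, with a log2 fold change of 4.81 (SE 0.36, limma adjusted p = 0.00018). miR-196b-5p went from 62.8 ± 38.8 to 1208 ± 10.2 CPM (SD, n = 2 each), 19.2-fold higher, with a log2 fold change of 4.37 (SE 0.58, limma adjusted p = 0.003). Both members tested were thus called higher, where 12.2% of the 205 miRNAs tested were called and 6.34% were called higher. From caput to cauda the log2 fold changes were 4.11 (SE 0.35, limma adjusted p = 0.00029) for miR-196a-5p and 5.61 (SE 0.55, limma adjusted p = 0.00055) for miR-196b-5p. On the CPM scale these were 18.0-fold and 47.9-fold, and again both were called higher, beside 25.9% called and 13.9% called higher of 216 tested. The folds of miR-196b-5p moved with the caput libraries (90.2 and 35.4 CPM) but stayed called. Without caput replicate 1 the log2 fold changes to corpus and cauda were 5.06 and 6.34, and without caput replicate 2 they were 3.76 and 5.01.

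From corpus to cauda neither was called, where 10.9% of the 192 miRNAs tested were called in either direction. miR-196b-5p reached 3008 ± 1391 CPM (SD, n = 2) in the cauda, 2.49 times the corpus mean, with a log2 difference of 1.24 (SE 0.37, 95% interval 0.39 to 2.1, limma adjusted p = 0.064). The size of this difference rested on the cauda libraries, which were 3992 and 2025 CPM. Without cauda replicate 1 the log2 difference was 0.75 (limma adjusted p = 0.089), and without cauda replicate 2 it was 1.69 and was called (limma adjusted p = 0.0095). In such fits the cauda is 1 library, assumed to vary as the libraries of the other regions do. It was also called in 5 of 10 other settings tried, in all of which it kept its direction. miR-196a-5p stood at 626 ± 88.6 CPM (SD, n = 2) in the cauda, 0.611 times the corpus mean, with a log2 difference of -0.70 (SE 0.22, 95% interval -1.20 to -0.19, limma adjusted p = 0.078). In the cauda of the epithelial preparation, miR-196b-5p was the miRNA of rank 34 among 677 and took 0.324% of all counts, and miR-196a-5p was of rank 82.

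Beside these values, the germ cell sum in the epithelial preparation was 3837 to 4378 CPM in the caput, 2482 to 3903 in corpus libraries and 2566 to 6185 in cauda libraries. miR-880-3p and miR-471-5p were at 0 in the caput, miR-471-5p and miR-463-5p in the corpus, and miR-463-5p in the cauda. Endothelial miRNAs (2 names) summed to 46640 to 56669 CPM in the cauda against 13092 to 14322 CPM in the corpus and 25517 to 35754 CPM in the caput, and to between 13945 and 18250.3 CPM over all tissue libraries. The leukocyte sum there was 470.4 to 865 CPM, 511 to 706 CPM and 1380.3 to 1586 CPM in caput, corpus and cauda, the fibroblast sum 1739 to 1899 CPM, 2317 to 2461 CPM and 2467 to 3681 CPM, and the red blood cell sum 129 to 171 CPM, 64.9 to 91.9 CPM and 291 to 450.5 CPM. Apart from the names at 0, the members of these lists were not compared singly, so a sum can hide members that went another way. The part of these cells in the values of miR-196 was not tested.

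Whether the regional steps differed between the preparations was tested as an interaction in a joint fit of all 14 libraries. The change of miR-196a-5p from corpus to cauda was lower in epithelial cells than in tissue by 1.21 on the log2 scale (difference -1.21, SE 0.28, 95% interval -1.80 to -0.61, limma adjusted p = 0.018), where 5.15% of the 194 miRNAs tested passed the FDR threshold. This call was lost without tissue corpus replicate 1 (-0.93), tissue cauda replicate 2 (-0.90), epithelial corpus replicate 2 (-1.0) or epithelial cauda replicate 2 (-0.81), with adjusted p in limma between 0.052 and 0.068. For miR-196b-5p the same difference was -0.81 (SE 0.38, 95% interval -1.61 to -0.001, limma adjusted p = 0.19) and did not pass. It passed without epithelial cauda replicate 1 (-1.14, limma adjusted p = 0.032), and without epithelial cauda replicate 2 it was -0.07 (limma adjusted p = 0.88). From caput to corpus the interaction was 0.34 (95% interval -0.62 to 1.29) for miR-196a-5p and 0.75 (95% interval -0.53 to 2.04) for miR-196b-5p, and neither passed (limma adjusted p = 0.78 and 0.58; 1.55% of miRNAs passed). From caput to cauda it was -0.87 (95% interval -1.80 to 0.06) and -0.05 (95% interval -1.25 to 1.14), and neither passed (limma adjusted p = 0.2 and 0.96; 16% of miRNAs passed).

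Within a region, the 5p products were higher in epithelial cells than in whole tissue. In the corpus the log2 difference was 2.12 (SE 0.21, limma adjusted p = 2e-06) for miR-196a-5p and 2.31 (SE 0.31, limma adjusted p = 2.5e-05) for miR-196b-5p. Of the 5p products, 2 of 2 were called higher there, where 25.5% of 275 miRNAs were called and 10.2% were called higher. In the caput the differences were 1.78 (SE 0.40, limma adjusted p = 0.0015) and 1.56 (SE 0.52, limma adjusted p = 0.02), 2 of 2 called, beside 35.2% called and 15.1% called higher of 284 tested. The size of the caput difference of miR-196b-5p rested on 1 library. Without epithelial caput replicate 1, the library at 90.2 CPM, its log2 difference was 0.81 (limma adjusted p = 0.48), and the call was lost. It was also lost in 7 other fits that left out a library, where the log2 difference stayed between 1.31 and 1.47. Most of these left out a corpus or cauda library, which is no part of the caput difference. In these fits the median log2 difference of all miRNAs tested was -0.30 to -0.21, against -0.07 in the main fit. The cause of that shift was not tested.

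In the cauda the difference was 1.5 (SE 0.22, limma adjusted p = 2.6e-05) for miR-196b-5p, so that 1 of 2 members of the 5p pair was called, where 37.8% of 296 miRNAs were called and 15.2% were called higher. miR-196a-5p passed the FDR threshold there but fell short of 2-fold, at 0.91 (SE 0.18, limma adjusted p = 0.00058). It passed 2-fold in 7 of the 14 fits without a library, with log2 differences of up to 1.1. Several of these left out a caput or corpus library, which is no part of the cauda difference. In these fits the median log2 difference of all miRNAs tested was -0.21 to -0.17, against -0.30 in the main fit. The cause of that shift was not tested. The preparation and the count table cannot be told apart, since all epithelial libraries stand in one table and all tissue libraries in the other. The epithelial and muscle sums, given above, were both higher in the epithelial preparation of the caput and corpus, and the epithelial sum also in the cauda, although the plating step is meant to remove muscle cells, and their part in these differences was not tested. The endothelial sum was likewise higher in the epithelial preparation of the cauda (46640 to 56669 against 16398 to 17319 CPM) and of the caput (25517 to 35754 against 14776 to 18250.3 CPM), as was the red blood cell sum in both.

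The balance between the 5p products, which have the same length and seed, was read as the share of miR-196b-5p in their summed counts. In tissue it was 69.4, 64.6 and 64.3% in the caput libraries, 49.2 and 53.1% in those of the corpus and 75.2, 73.2 and 77.1% in those of the cauda. In epithelial cells it was 70.7 and 52.4% in caput libraries, 56.7 and 51.7% in corpus libraries and 85.3 and 78.2% in cauda libraries. The corpus libraries were near an even balance in both preparations and the cauda libraries were dominated by miR-196b-5p. Corpus and cauda did not overlap in either preparation, and caput and corpus overlapped in epithelial cells only. Counting error was widest in the caput, where the exact 95% intervals ran from 54.6 to 81.7% for tissue replicate 1 and from 29.8 to 74.3% for epithelial replicate 2. In the cauda the interval was 73.4 to 77.0% for tissue replicate 1. Such intervals cover counting error only.

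**Figure D2:**
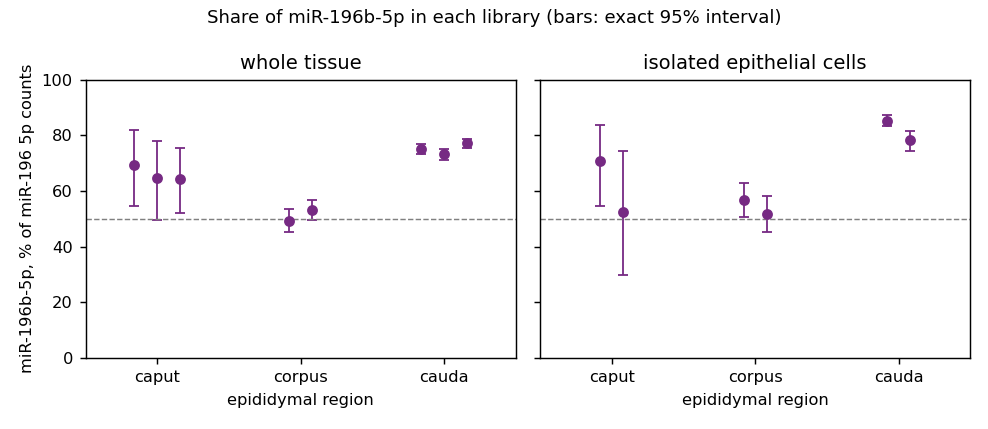
Share of miR-196b-5p in the summed counts of miR-196a-5p and miR-196b-5p (percent) by region, 1 point per library, with exact 95% binomial intervals and a dashed line at 50%. The corpus libraries lie between 49.2 and 56.7%, and the cauda libraries between 73.2 and 85.3%.

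On the log2 scale the ratio of miR-196b-5p to miR-196a-5p in tissue was 0.97, 0.07 and 1.60 in caput, corpus and cauda. The step from corpus to cauda was 1.53, a ratio 2.90-fold higher (two-sided exact permutation test, p = 0.2, which is the smallest p that 2 against 3 libraries allow). From caput to corpus the difference was -0.90 (exact permutation p = 0.2, again the smallest possible), and from caput to cauda the difference was 0.64 (exact permutation p = 0.1, the smallest possible with 3 against 3). In epithelial cells the ratio was 0.71, 0.24 and 2.19. The difference from corpus to cauda was 1.95 and that from caput to cauda 1.48 (exact permutation p = 0.333 for each, the smallest possible). The difference from caput to corpus was -0.46 (exact permutation p = 0.667) and turned to 0.11 without epithelial caput replicate 1. No such test could pass 0.05 in this design, and adjusted over the 6 comparisons the exact p-values were 0.4 to 0.667.

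The 3p products were scarce. miR-196a-2-3p, the 3p product of the Hoxc gene, had 0, 1 and 0 counts in the tissue caput, 7 and 17 in corpus libraries and 27, 22 and 20 in cauda libraries. Every caput library lay below every corpus library, and every corpus library below every cauda library. The ratio of summed CPM was 40.5 from caput to corpus (exact interval for counting error 6.60 to 1664) and 1.56 from corpus to cauda (0.970 to 2.60). It entered the tests against the caput only through the corpus and cauda, so a call there could only be a higher one. As a description, the fitted log2 difference was 4.18 from caput to corpus (SE 0.63) and 4.89 from caput to cauda (SE 0.57). From corpus to cauda the difference was 0.71 (SE 0.39, limma adjusted p = 0.14) and was not called. Fitted values against a caput with 1 count in all depend on the offset used.

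miR-196b-3p, the 3p product of the Hoxa gene, had 0, 2 and 0 counts in the tissue caput, 1 and 1 in corpus libraries and 19, 14 and 16 in cauda libraries. Only the cauda libraries stood apart. The ratio from corpus to cauda was 13.3 (exact interval for counting error 3.50 to 113), with a fitted log2 difference of 3.19 (SE 0.70). From caput to cauda the ratio was 22.5 (5.90 to 191) and the fitted log2 difference 4.17 (SE 0.59). From caput to corpus it had too few counts to be tested, and the ratio of 1.69 had an interval of 0.122 to 23.3. It entered both tests only through the cauda, where it was high, so those values describe it and support nothing further.

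miR-196a-1-3p, the 3p product of the Hoxb gene, had 1, 1 and 2 counts in the tissue caput, 0 and 1 in corpus libraries and 2, 0 and 0 in cauda libraries, and no count in any epithelial library. It was never tested. Where 24 counts of miR-196a-2-3p fell in the corpus there was 1 of miR-196a-1-3p, and where 69 fell in the cauda there were 2. In the caput the numbers were 1 and 4. These are counts of 3p products and do not divide miR-196a-5p between its genes.

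**Figure D3:**
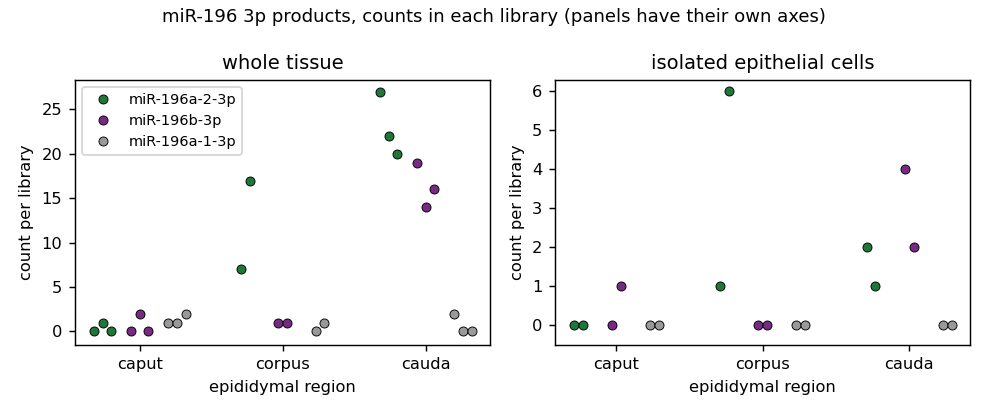
Counts of miR-196a-2-3p, miR-196b-3p and miR-196a-1-3p in each library by region (1 point per library, linear axes that differ between the panels). In tissue the cauda libraries hold 20 to 27 counts of miR-196a-2-3p and 14 to 19 of miR-196b-3p, and no epithelial library holds more than 6 counts of any of them.

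In epithelial cells miR-196a-2-3p had 0 and 0 counts in the caput, 1 and 6 in corpus libraries and 2 and 1 in cauda libraries. No fold is given, since 6 of the 7 corpus counts stood in 1 library. miR-196b-3p had 0 and 1 counts in the caput, 0 and 0 in corpus libraries and 4 and 2 in cauda libraries, and the ratio from caput to cauda was 7.93 (exact interval for counting error 0.962 to 365). No 3p product reached the mean count needed for a test in these libraries alone. In the joint fit miR-196a-2-3p differed between preparations by 1.74 in the corpus (SE 0.69, limma adjusted p = 0.056) and, as a description, by -0.84 in the cauda (SE 0.67). The corpus value without epithelial corpus replicate 1, which held 1 count, was 2.96 and was called (limma adjusted p = 0.0029), and without epithelial corpus replicate 2, which held 6, it was 0.53 (limma adjusted p = 0.72). It was also called with the replicate block (1.97, limma adjusted p = 0.038) and with all shared names tested. miR-196b-3p differed by 0.44 in the cauda (SE 0.58). In the cauda both 3p products reached the mean count only in tissue, and miR-196a-2-3p was higher there, so no test is drawn from these values.

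The 5p products outnumbered the 3p products in every group. Of the summed counts of miR-196a-5p and miR-196a-2-3p in tissue, the 3p product took 1.72% in the caput (exact 95% interval 0.0436 to 9.24%), 3.42% (2.21 to 5.05%) in corpus libraries and 4.14% in cauda libraries (3.23 to 5.21%). Of the products of Mir196b it took 1.79% in the caput (0.217 to 6.30%), 0.278% (0.0337 to 1.00%) in corpus libraries and 0.996% in cauda libraries (0.737 to 1.31%). These intervals pool the libraries of a region and cover counting error only, and miR-196a-5p also holds the product of Mir196a-1, so no difference is read from them. In the epithelial cauda the shares were 0.980% (0.203 to 2.84%) for miR-196a-2-3p and 0.399% (0.147 to 0.867%) for miR-196b-3p. In epithelial cells, where 0 counts of miR-196b-3p stood against 267 of miR-196b-5p in the corpus, the exact upper bound of the share was 1.37%.

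The other miRNAs of the Hox clusters are miR-10a, beside Hoxb4, miR-10b, in introns of Hoxd3 and Hoxd4, and miR-615 of the Hoxc cluster, with 6 products in all. From caput to cauda in tissue, 4 of the 5 tested were called, all lower, beside 25.4% called lower of all 355 tested. They were miR-10a-5p by -1.1, miR-10a-3p by -2.39, miR-10b-5p by -1.37 and miR-10b-3p by -1.41 on the log2 scale (limma adjusted p = 2.3e-07, 3.1e-07, 1.2e-07 and 0.00027). miR-10b-5p was far more abundant than miR-196 throughout, at 119044 ± 5971 CPM (SD, n = 3) in the caput and 46092 ± 3102 CPM (SD, n = 3) in the cauda. miR-10a-5p stood at 85087 ± 3391 and 39707 ± 1440 CPM (SD, n = 3 each). As a share of all counts, without TMM factors, it went from 7.34% to 4.36%, which is short of 2-fold.

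miR-615-3p was the only one of these called higher in a comparison of regions, from caput to corpus in tissue, with a log2 fold change of 1.37 (SE 0.26, limma adjusted p = 0.0013). It went from 13.2 ± 1.98 CPM (SD, n = 3) to 34.0 ± 3.62 CPM (SD, n = 2), and stood at 22.3 ± 4.94 CPM (SD, n = 3) in the cauda. From caput to cauda its log2 difference was 0.73 (SE 0.24, limma adjusted p = 0.018), which passed the FDR threshold but not 2-fold. Of these 6 products, 2 of 5 tested were called from caput to corpus, beside 29.9% of all miRNAs tested. From corpus to cauda it was 1 of 5, miR-10b-5p (-1.14, limma adjusted p = 6.2e-06), beside 27.3%. In epithelial cells, 1 of 3 tested was called from caput to cauda, miR-10a-3p at -2.20 (SE 0.67, limma adjusted p = 0.034), beside 25.9% of all tested. It entered that test only through the caput, where it was high (mean counts of 23 and 4.5), so a call could only be a lower one. None of 3 was called from caput to corpus (12.2% of all) and none of 2 from corpus to cauda (10.9% of all), with limma's adjusted p between 0.096 and 0.73.

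**Figure D4:**
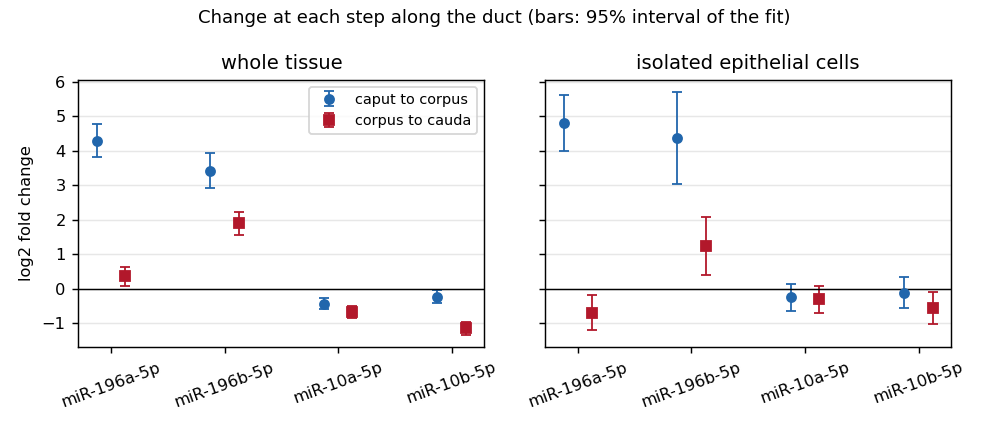
Log2 fold changes from caput to corpus (circles) and from corpus to cauda (squares) with the 95% intervals of the fit, for the 5p products of miR-196a, miR-196b, miR-10a and miR-10b in whole tissue and in epithelial cells. The miR-196 steps from caput to corpus lie between 3.43 and 4.81, and those of miR-10a-5p and miR-10b-5p between -0.43 and -0.11.

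The miRNAs most like miR-196b-5p in pattern were found by Pearson's r of log2 CPM, as a description. Over the 8 tissue libraries, among 356 miRNAs outside the family, these were miR-871-5p (r = 0.992), miR-335-5p (r = 0.990) and the 3 names miR-465a-3p, miR-465b-3p and miR-465c-3p (r = 0.986 each), which had identical values. miR-871-5p stood at 29.6, 118 and 241 CPM in caput, corpus and cauda, and miR-335-5p at 62.6, 186 and 333 CPM. Over the epithelial libraries the r of miR-871-5p with miR-196b-5p was 0.756. The r of miR-196a-5p with miR-196b-5p was 0.966 in tissue and 0.930 in epithelial cells. In tissue, miR-222-3p was closest to miR-196a-5p (r = 0.993), at 74.4, 453 and 549 CPM.

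Over the 6 epithelial libraries, among 214 miRNAs, the closest to miR-196b-5p were miR-99a-5p (r = 0.962), miR-205-5p (r = 0.944), miR-465a-5p (r = 0.939), miR-222-3p (r = 0.935) and miR-434-3p (r = 0.934). In tissue their r with miR-196b-5p was 0.642, -0.796, 0.980, 0.966 and 0.978. The epithelial miRNA miR-205-5p therefore ran against miR-196b-5p in tissue and with it in epithelial cells. The libraries of a region share their region, and epithelial libraries also differ in depth, so the libraries are not independent points.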

How the data were processed

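The deposited values are estimated counts per mature miRNA (some are fractions), with 0.001 added to each value of the epithelial preparation. The authors left them unnormalized, since library totals differ. By the study's methods, reads were trimmed, aligned to the mouse genome and to mature miRNAs of miRBase, and counted. The submitters' processing notes name CASAVA 1.8.2, Bowtie 1.1.1 and limma, without their roles. Here the added 0.001 was subtracted and the counts were rounded to whole numbers. Alignment settings are not given in the sources used here.

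TMM factors (edgeR 4.0.16) were computed from miRNAs with a mean count above 10 in at least 1 region, and each preparation was fitted on its own by voom in limma 3.58.1 under R 4.3.3, without a replicate block, with two-sided contrasts of region means over all miRNAs with a mean count above 10 in either region. Adjustment was by Benjamini-Hochberg over all of them. A miRNA was called where the FDR was below 0.05 and the change reached 2-fold, and an interaction at the FDR alone. Interactions and preparations were tested in a joint fit of the 578 shared names. Ratios of the 5p products were compared by exact permutation tests. Intervals are at 95%, exact (Clopper-Pearson) for shares, and floors are 3 counts. The fits were also run on simulated counts with the same spread setting for every miRNA. That setting differs from these libraries, so it gives no support to a result here.

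The miRNAs named are the family, the 6 other Hox products, marker list members and the 5 highest by Pearson r with miR-196b-5p in each preparation, plus the 1 closest to miR-196a-5p in tissue, chosen after its value was seen. The members, the other Hox miRNAs, the marker lists and the rule for the 5 most similar miRNAs were chosen with earlier results of these data known. The labels number the libraries within a group, up to 3 in tissue, while the study's methods speak of 2 biological replicates. For the epithelial libraries, a footnote in the study's supplement speaks of technical replicates. Whether each library is a separate pool of mice is thus not settled in either preparation, and p-values measure only the spread between these libraries. Replicates of a group differed by more than sampling noise. As a check of pairing, deviations from region means were correlated between same-numbered libraries across the miRNAs of a preparation. In tissue, by the numbers in the titles, r was 0.218, 0.121 and 0.122 for caput with cauda and 0.231 and 0.149 for corpus with cauda. For caput with corpus it was -0.007 and -0.014, so the check does not settle whether equal numbers share mice. The column names number the tissue libraries in a single series that skips a number before the corpus. A corpus number in the titles therefore need not match that of the other regions, in this check or in the replicate block. Alternatives replaced the test (edgeR's quasi-likelihood test, DESeq2 1.42.0), the scaling, the filter and the samples, added the replicate block, or left out each library.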

Additional observations from a re-analysis of the deposited data

Results flagged for a closer look

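The change of miR-196a-5p from corpus to cauda differed between the preparations by the interaction test, by -1.21 on the log2 scale (epithelial cells minus tissue; SE 0.28, limma adjusted p = 0.018). In tissue both corpus libraries (224 and 247 CPM) lay below all 3 cauda libraries (274 to 322 CPM), and in epithelial cells both corpus libraries (917 and 1134 CPM) lay above both cauda libraries (564 and 689 CPM). Over the other settings the adjusted p in limma or the tool tried ranged from 0.014 to 0.054, and over the fits without a library from 0.015 to 0.068. Neither change within a preparation was itself called.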

How the results depend on the processing

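All calls of the 5p products between regions of tissue kept their direction and their side of the thresholds in every fit. So did those from caput to corpus and caput to cauda in epithelial cells. In tissue, miR-196a-2-3p against the caput and miR-196b-3p between regions could only be called higher and are not counted here. The strict filter (at least 10 counts in every library) gave no value for the 3p products. From corpus to cauda in epithelial cells, miR-196b-5p was called with DESeq2's Wald test (log2 1.255), library totals (1.29), all miRNAs with at least 1 count (1.25), the replicate block (1.31) and TMM from all miRNAs (1.29). That last setting, counts left unrounded and the crossed numbers were chosen after seeing the data. Leaving out libraries gave 0.751 to 1.688. The replicate block changed no other call of a 5p product. In epithelial cells the numbers were shared only as numbers (r = 0.200 for caput and corpus, -0.137 for caput and cauda), and with the numbers crossed in the cauda 40 (caput to corpus) and 32 (corpus to cauda) miRNAs were called.

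Interactions: the miR-196a-5p call from corpus to cauda was lost with all shared names (-1.21; adjusted p = 0.054 in limma) and ranged from -1.341 to -0.811 without a library. For miR-196b-5p the range there was -1.142 to -0.067, and from caput to cauda its sign turned with DESeq2 size factors (0.072), library totals (0.175) and in 8 of 14 fits without a library (-0.349 to 0.827 over all 14). Preparations: the caput call of miR-196b-5p was lost with DESeq2 size factors (1.39) and ranged from 0.809 to 1.933 without a library. miR-196a-5p in the cauda was called with library totals (1.04) and ranged from 0.740 to 1.104. The ratio of the 5p products from caput to corpus in epithelial cells ranged from -1.028 to 0.107.

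Numbers of miRNAs called: with the strict filter 112 and 66 in tissue (caput to cauda, caput to corpus) and 30 and 16 in epithelial cells. With all miRNAs, 84 and 40 in epithelial cells (caput to corpus, corpus to cauda), 1 and 4 for the interactions of these steps, and 190, 193 and 188 for the preparations in caput, corpus and cauda. DESeq2 size factors gave 12 interactions from caput to corpus, and edgeR's test 19 and library totals 23 from corpus to cauda. Without a library the ranges were 26 to 60, 10 to 30 and 4 to 27 in epithelial cells (caput to cauda, caput to corpus, corpus to cauda), 27 to 62, 0 to 9 and 0 to 32 for the interactions in that order, and 41 to 88 for the preparations in the corpus. Library totals moved the median log2 difference of tissue from -0.05 to 0.30 (caput to cauda) and from -0.05 to 0.28 (caput to corpus), and the calls from 99 higher and 90 lower to 115 and 65, and from 47 and 53 to 76 and 35. The cause of these shifts was not tested. Depth limits the caput and all 3p values.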
